A study of Homo sapiens with 4 samples.

Results

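TXNIP, the thioredoxin-interacting protein gene, and its relatives ARRDC1, ARRDC2, ARRDC3 and ARRDC4 make up most of the human alpha-arrestin family. The 5 genes were taken by name from a table of 20665 genes, and all 5 had enough reads to be tested. The 4 libraries were made from NALM6, an established human cell line that grew out of a B cell precursor leukemia. In the 2 AICAR libraries the cells had spent 24 h in medium without glucose and then 45 min with 15 mM AICAR, and in the 2 vehicle libraries they had received DMSO for 45 min. Cells phosphorylate AICAR, a nucleoside, to a compound that mimics AMP and activates AMPK, the energy-sensing kinase. Whether the vehicle cells also went without glucose is not said in the labels. An effect of AICAR and one of glucose deprivation therefore cannot be told apart, which bears directly on TXNIP, a gene that responds to glucose. The stated purpose was to see how AICAR regulates IEGs, the immediate early genes, in ALL cells.

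Alpha-arrestins share the arrestin fold with the beta-arrestins, and most of them carry PPxY motifs that bind the WW domains of NEDD4 family ubiquitin ligases, so that they act as adaptors in the ubiquitination and endocytosis of membrane proteins. TXNIP also binds and inhibits thioredoxin, and it promotes endocytosis of the glucose transporter GLUT1. Its gene and ARRDC4 are classical targets of MondoA with its partner MLX, a transcription factor pair that moves to glucose-responsive promoters when phosphorylated glucose accumulates. At the protein level AMPK phosphorylates TXNIP and promotes its degradation, a step that RNA data do not show.

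Promoters of the 3 genes with the larger changes are shown, with matches to several motifs marked. The stretches below are the 250 bases before a RefSeq start site (GRCh38.p14), written from 5′ to 3′ on the strand of the gene. Capitals mark matches on either strand to CACGTG (E-box), to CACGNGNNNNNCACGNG (a pair of E-box-like elements spaced as in a carbohydrate response element), to GTAAACA (the core bound by FOXO factors) and to CCAAT. The TXNIP stretch is chr1:145996580-145996829 on the minus strand.

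TXNIP: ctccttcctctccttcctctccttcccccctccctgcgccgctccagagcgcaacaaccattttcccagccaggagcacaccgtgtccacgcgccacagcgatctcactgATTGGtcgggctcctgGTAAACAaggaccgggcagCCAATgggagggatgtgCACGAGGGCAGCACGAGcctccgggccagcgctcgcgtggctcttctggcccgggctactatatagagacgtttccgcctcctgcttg

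For ARRDC4 the stretch is chr15:97960453-97960702 on the plus strand. The ARRDC3 stretch, chr5:91380098-91380347 on the minus strand, precedes the more downstream of its 2 listed start sites. Of the 2 it is the one with a GTAAACA match, and the other is not shown. Which start sites these cells use was not tested.

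ARRDC4: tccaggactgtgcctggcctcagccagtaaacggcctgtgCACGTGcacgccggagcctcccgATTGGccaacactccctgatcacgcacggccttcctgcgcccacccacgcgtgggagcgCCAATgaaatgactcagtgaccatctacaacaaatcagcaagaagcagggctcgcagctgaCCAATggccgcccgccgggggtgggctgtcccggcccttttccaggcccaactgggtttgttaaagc

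ARRDC3: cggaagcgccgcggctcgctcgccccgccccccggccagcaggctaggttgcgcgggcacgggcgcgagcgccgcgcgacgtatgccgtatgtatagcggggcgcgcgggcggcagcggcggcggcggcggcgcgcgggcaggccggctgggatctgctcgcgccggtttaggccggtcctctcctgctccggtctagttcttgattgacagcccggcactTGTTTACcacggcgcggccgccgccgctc

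The paired E-box-like element of TXNIP lies 88 to 72 bases before the start site and reads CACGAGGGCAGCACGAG. Of 35116 promoter stretches of the same length, 16 (0.0456%) held such a pair. That share holds for the exact pattern searched, which the TXNIP letters meet. No looser pattern was searched, so it does not measure how rare carbohydrate response elements are. Other stretches, that of ARRDC4 included, may hold a looser form. TXNIP further had a GTAAACA match 124 to 118 bases before the start, a motif in 2.98% of the stretches, and 2 CCAAT boxes, a motif in 11240 of them. The stretch of its other listed start site held none of the motifs. ARRDC4 had a single CACGTG 210 to 205 bases before its start, found in 6.34% of the stretches, and 3 CCAAT boxes. ARRDC3 had no E-box before either start site. The upstream stretch held a CCAAT box, and the downstream one held a GTAAACA match, on the other strand, 29 to 23 bases before the start. The stretches of ARRDC1 and ARRDC2 held a CCAAT box each and none of the other 3 motifs, ARRDC2 at 1 of its 2 start sites. All 5 genes matched the RefSeq table by symbol, with 8 start sites in all. A match describes these letters and not a bound site.

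Transcripts of 4 of the 5 genes fell with AICAR. TXNIP fell 2.83-fold and ARRDC3 3.32-fold, ARRDC4 fell 1.69-fold and ARRDC2 1.25-fold, while ARRDC1 did not pass the test. Of all 13626 genes tested, 19.7% were called lower and 19.4% higher (39.1% in either direction), by the quasi-likelihood test of edgeR at an adjusted p under 0.05. With libraries scaled by total counts alone, the calls over all genes were 3135 lower and 1390 higher, against 2683 and 2645 with TMM factors, and the same 4 of the 5 members were lower. A level here is a share of the library's reads, and RNA per cell was not measured, so fewer expressing cells and less RNA per cell cannot be told apart. Nothing in the labels says that replicates came from separate cultures, so the tests measure the spread between these libraries, which may be technical.

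TXNIP (ENSG00000117289) had 705 and 745 counts in the AICAR libraries, against 2233 and 2300 counts in the vehicle libraries. As CPM, counts scaled to library size with TMM factors, these were 22.1 and 22.3 with AICAR, against 63.2 and 62.5 with vehicle. The replicates of each group lay within 1 CPM of each other, and the groups lay far apart. The mean was 22.2 ± 0.148 CPM with AICAR and 62.9 ± 0.504 CPM with vehicle (SD, n = 2 each). The log2 fold change was -1.50 ± 0.049 (SE), with an edgeR adjusted p of 3.68e-09. In all, 242 tested genes (1.78%) had a lower log2 fold change than TXNIP. There were 41 among the 7953 protein-coding genes that averaged 10 CPM or more.

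ARRDC3 (ENSG00000113369), an adaptor linked to the trafficking of adrenergic receptors and integrin beta4, had the largest fall of the family on counts. It had 292 and 298 counts with AICAR, against 1069 and 1094 counts with vehicle. Its level was 9.03 ± 0.162 CPM with AICAR and 30.01 ± 0.377 CPM with vehicle (SD, n = 2 each), again with no overlap between the groups. In log2 units this was a change of -1.73 ± 0.067 (SE), at an adjusted p of 1.27e-08 in edgeR. Lower log2 fold changes were seen in 167 tested genes, and in 24 of the 7953 abundant protein-coding genes.

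ARRDC4 (ENSG00000140450), the relative of TXNIP that shares its glucose response, was the scarcest member. It had 166 and 149 counts with AICAR, against 291 and 295 counts with vehicle, or 4.83 ± 0.524 CPM with AICAR and 8.13 ± 0.157 CPM with vehicle (SD, n = 2 each). The vehicle libraries were close together, and the AICAR libraries, both lower, were further apart. Its log2 fold change was -0.75 ± 0.118 (SE), at an adjusted p of 0.000479 in edgeR. Tested on the deposited FPKM, the fall did not pass (limma on log2(FPKM + 1), log2 fold change -0.39, adjusted p = 0.0721).

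ARRDC2 (ENSG00000105643) had 866 and 922 counts with AICAR, against 1237 and 1230 with vehicle. Its level was 27.4 ± 0.327 CPM with AICAR and 34.2 ± 1.13 CPM with vehicle (SD, n = 2 each). The 4 libraries did not overlap between groups, and the change in log2 units was -0.32 ± 0.054 (SE), at an adjusted p of 0.000728 in edgeR. Of the tested genes, 19.8% had a lower log2 fold change than ARRDC2.

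ARRDC1 (ENSG00000197070), which recruits the ESCRT protein TSG101 to the plasma membrane and drives the budding of microvesicles there, had 466 and 585 counts with AICAR, against 475 and 518 counts with vehicle. In CPM these were 14.6 and 17.5 with AICAR, against 13.5 and 14.1 with vehicle. The AICAR values lay above the vehicle values by a margin smaller than the gap between the AICAR libraries. The log2 fold change was 0.22 ± 0.091 (SE) and did not pass (edgeR adjusted p = 0.0751, unadjusted p = 0.0326). Its value hung on single libraries. It was 0.35 and called without AICAR replicate 1 (adjusted p = 0.00321), 0.09 without AICAR replicate 2 (adjusted p = 0.597), and 0.24 and called without vehicle replicate 2 (adjusted p = 0.0438). With the replicate number as a block it was 0.22 and called (adjusted p = 0.0469). The count of members called higher was thus 0, and 1 in those 3 fits. It was also 0 with limma-voom and with DESeq2.

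**Figure D1:**
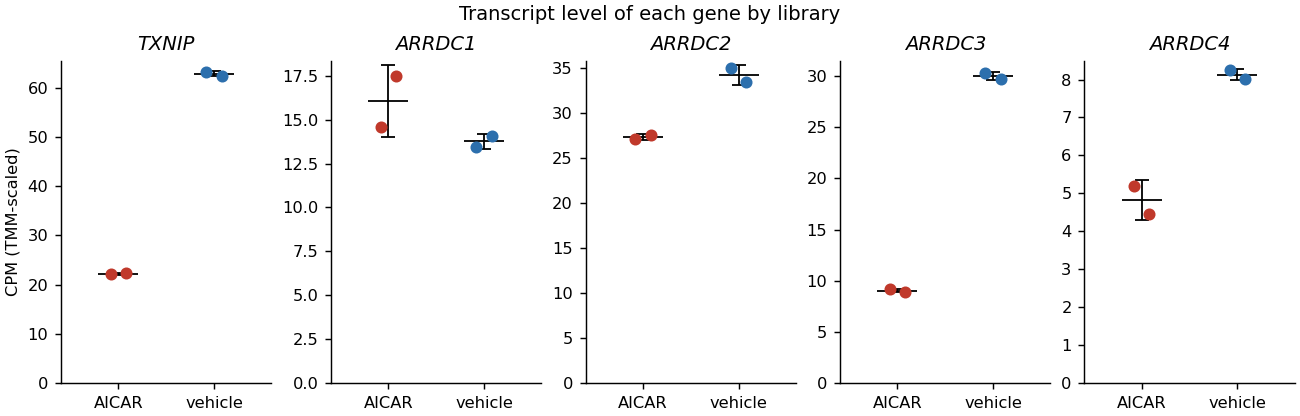
TMM-scaled CPM of each gene by library, 1 panel a gene with its own vertical axis from 0. Points are libraries (2 a group), bars the mean and error bars the SD. TXNIP sits near 22 CPM with AICAR and near 63 CPM with vehicle, ARRDC3 near 9 and 30 CPM, and the ARRDC1 points of the groups lie close together.

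In CPM the groups did not overlap for any of the 5 genes, while the FPKM of ARRDC1 overlapped. Over all tested genes, CPM did not overlap between the groups with AICAR lower for 34.9% and with AICAR higher for 34.3%. In the authors' deposited table the log2 fold changes were -1.42 for TXNIP, -1.55 for ARRDC3, -0.57 for ARRDC4, -0.30 for ARRDC2 and 0.20 for ARRDC1, with q-values of 3.21e-60, 4.33e-38, 0.00372, 0.00931 and 0.304 in the same order. The direction of that column was read from its signs beside the counts.

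Ratios of counts within a library do not depend on how libraries are scaled. TXNIP had 1.51 and 1.27 counts per count of ARRDC1 in the AICAR libraries, against 4.70 and 4.44 in the vehicle libraries. ARRDC3 had 0.627 and 0.509 counts per ARRDC1 count with AICAR, against 2.25 and 2.11 with vehicle. ARRDC2 had 1.86 and 1.58 counts per ARRDC1 count with AICAR, against 2.60 and 2.38 with vehicle. ARRDC4 had 0.356 and 0.255 counts per ARRDC1 count with AICAR, against 0.613 and 0.570 with vehicle. Each of these ratios was lower in each AICAR library than in either vehicle library. How many other genes separate from ARRDC1 in this way was not counted. The CPM of ARRDC1 was itself higher in both AICAR libraries, which enlarges these falls. By ratio they were 3.29-fold for TXNIP, 3.86-fold for ARRDC3, 1.96-fold for ARRDC4 and 1.45-fold for ARRDC2. In the edgeR fit they were 2.83-fold, 3.32-fold, 1.69-fold and 1.25-fold.

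Ratios were also taken between members that fell. ARRDC3 had 0.414 and 0.400 counts per TXNIP count with AICAR, against 0.479 and 0.476 with vehicle, a 1.17-fold difference. ARRDC4 had 0.235 and 0.200 counts per TXNIP count with AICAR, against 0.130 and 0.128 with vehicle, so its share relative to TXNIP was 1.68-fold higher with AICAR. Each of the 6 ratios computed had an exact two-sided permutation p of 0.333, the smallest that 2 libraries against 2 allow, so none can pass a threshold in this design.

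Levels per transcript length, as deposited FPKM, set the genes in a different order in the 2 groups. With AICAR, ARRDC1 (11.4 and 12.3 FPKM) and ARRDC2 (11.2 and 11.4 FPKM) stood first and did not differ beyond their spread. TXNIP followed at 7.65 and 8.33 FPKM, then ARRDC3 at 6.14 and 4.98 FPKM and ARRDC4 at 1.83 and 1.72 FPKM. With vehicle, TXNIP stood first at 27.9 and 26.1 FPKM. ARRDC2 at 15.1 and 13.8 FPKM, ARRDC3 at 16.03 and 10.9 FPKM and ARRDC1 at 12.4 and 10.2 FPKM overlapped as neighbours, and ARRDC4 was last at 2.83 and 2.45 FPKM. The summed FPKM of the 5 genes was 38.2 and 38.7 with AICAR, against 74.2 and 63.4 with vehicle. TXNIP made up 20.03% and 21.5% of that sum with AICAR, against 37.6% and 41.1% with vehicle.

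**Figure D2:**
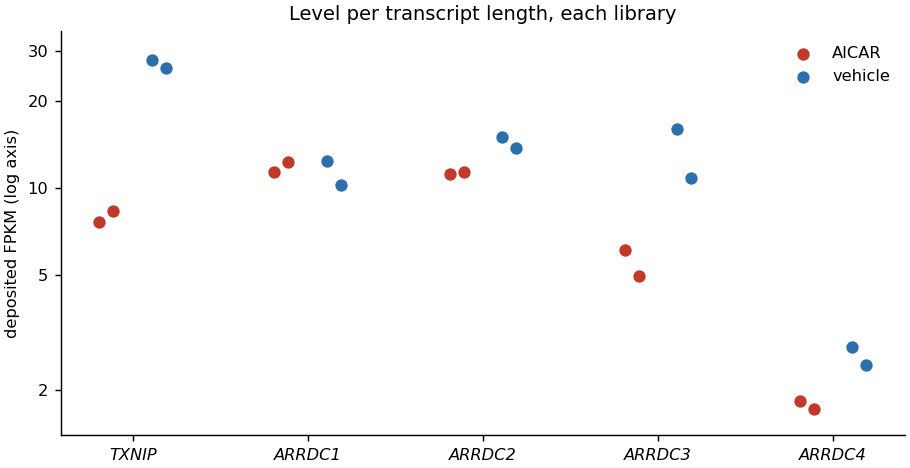
Deposited FPKM of each gene in each library on a log axis, AICAR in red and vehicle in blue, 2 points a group. TXNIP is the highest gene with vehicle (27.9 and 26.1 FPKM) and lies below ARRDC1 and ARRDC2 with AICAR (7.65 and 8.33 FPKM).

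FPKM and counts gave different sizes of change for ARRDC3. Its mean FPKM was 5.56 ± 0.820 with AICAR and 13.5 ± 3.65 with vehicle (SD, n = 2 each), a 2.42-fold difference beside the 3.32-fold one in counts. With limma on log2(FPKM + 1) its log2 fold change was -1.12, which still passed (adjusted p = 0.0177). The vehicle libraries, nearly equal in counts, differed in FPKM. In RSEM a gene's FPKM rests on a length that depends on how reads are shared among its transcript models, so counts and FPKM together give the length that was used. For ARRDC3 that length was 1472 and 1737 bases with AICAR, against 1966 and 2737 bases with vehicle. It was shorter in each AICAR library than in either vehicle library, and the vehicle libraries were themselves 1.39-fold apart.

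The ratio of the mean lengths, AICAR over vehicle, was 0.682 for ARRDC3. Among 9759 protein-coding genes with at least 1 FPKM in every library, 0.379% had a ratio as low, and 1.22% had vehicle libraries as far apart. The ratio was 0.844 for ARRDC4 (3.75% as low) and 0.98 for ARRDC2 (37.9%). It was above 1 for ARRDC1, at 1.05 (88.1% as low), and for TXNIP, at 1.14 (97.3%). GENCODE 29, apparently not the annotation the authors used (see ARRDC4 below), gives ARRDC3 1 coding transcript of 4188 bases and 6 noncoding ones of 355 to 821 bases. The implied lengths lie between those of the short models and that of the coding one, but the models the authors used for ARRDC3 are not known. For TXNIP the length was 2852 and 2596 bases with AICAR, against 2360 and 2399 bases with vehicle. Its FPKM accordingly fell further than its counts, 3.38-fold. ARRDC2 had 2399 and 2355 bases with AICAR, against 2415 and 2424 bases with vehicle, so its counts and FPKM gave nearly the same change. ARRDC4, with a single GENCODE 29 transcript of 4072 bases, had 2807 and 2514 bases with AICAR, against 3031 and 3275 bases with vehicle. A single model would give about the same length in every library, so the authors' models of ARRDC4 apparently differ from GENCODE 29. ARRDC1 had 1265 and 1375 bases with AICAR, against 1130 and 1376 bases with vehicle. Which transcripts of a gene changed was not tested, since the table holds gene totals.

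**Figure D3:**
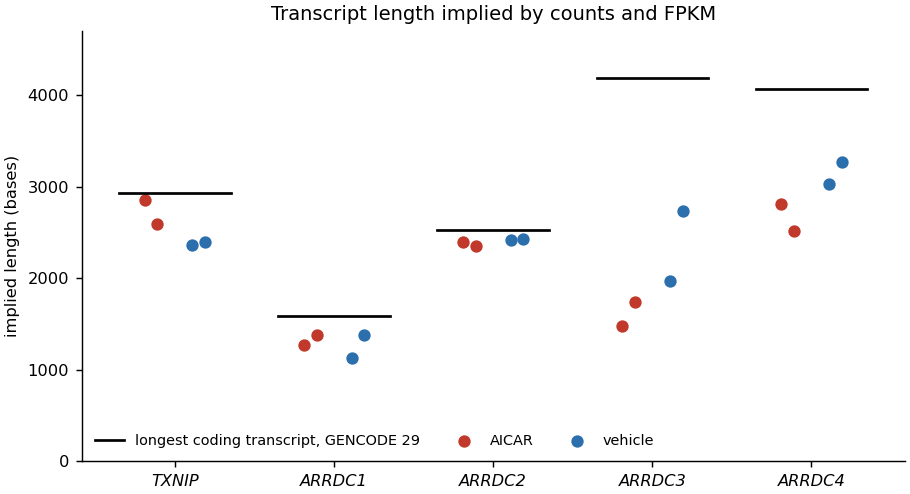
Transcript length in bases implied by counts, FPKM and depth for each gene and library, AICAR in red and vehicle in blue, with a bar at the longest coding transcript of GENCODE 29. ARRDC3 lies at 1472 to 1737 bases with AICAR and 1966 to 2737 bases with vehicle, below its 4188-base transcript, while the ARRDC2 points nearly coincide.

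In GENCODE 29, ARRDC3 is overlapped by the antisense gene ARRDC3-AS1, ARRDC1 by ARRDC1-AS1 and by a clone-named gene on its own strand, and ARRDC2 by a clone-named antisense gene. The library kit marks strand, but no source used here says whether the counting used it, so reads of these partners may be included. No other gene overlaps TXNIP or ARRDC4 there.

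MondoA and MLX act on TXNIP as proteins. In a list of MondoA, MLX and the proteins that share MLX or MAX as partner, 1 of 6 tested genes fell and 1 rose, with a median log2 fold change of -0.03. Over all genes tested, 19.7% fell and 19.4% rose, with a median of -0.0022. MLXIP, the gene of MondoA, had 39.3 ± 0.135 CPM with AICAR and 40.5 ± 1.21 CPM with vehicle (SD, n = 2 each). MLX had 51.8 ± 0.289 CPM with AICAR and 55.9 ± 0.558 CPM with vehicle, and neither passed (adjusted p = 0.525 and 0.0609). MXD1, a repressor that pairs with MAX or MLX, fell 2.80-fold at a low level, with 23 and 36 counts in AICAR libraries against 101 and 81 in vehicle libraries. MXD4, a repressor of the same family, rose by 0.24. With libraries scaled by total counts alone, MLX was called lower as well (log2 fold change -0.17, adjusted p = 0.0326). MLX was also lower among protein-coding genes alone (-0.12, adjusted p = 0.0422) and where a mean of 10 CPM was required (-0.15, adjusted p = 0.0109), a level that MXD1 does not reach. The rise of MXD4 did not pass with total counts alone, with DESeq2, without AICAR replicate 2 or without vehicle replicate 2.

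Known glucose-response targets of MondoA or its relative ChREBP did not share a direction. Of 9 tested, 4 fell and 3 rose (median log2 fold change 0.01), beside 19.7% and 19.4% of all genes tested. With total counts alone the counts were 4 and 2, and with limma on log2(FPKM + 1) they were 2 and 1. Those that fell were TXNIP and ARRDC4, members themselves, KLF10 and PFKFB3 (log2 fold change -0.28). Those that rose were FASN, ACLY (0.195) and ACACA (0.17). MLXIPL, the gene of ChREBP, has no row in the data. KLF10, a zinc finger repressor, fell 3.97-fold, to 2.10 ± 0.046 CPM with AICAR, against 8.34 ± 0.300 CPM with vehicle (SD, n = 2 each). FASN, the fatty acid synthase gene, rose by 0.68 in log2 units, and HK2, a hexokinase gene, had 117.0 ± 2.82 CPM with AICAR and 116.2 ± 1.02 CPM with vehicle and did not pass.

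Of the thioredoxin system, whose central protein TXNIP binds, 5 of 14 tested genes rose and none fell in the edgeR fit (median log2 fold change 0.11). Over all genes tested, 19.4% rose and 19.7% fell. At an unadjusted p under 0.05 in that fit the list had 8 higher and 0 lower, beside 3167 higher and 3241 lower of the 13626 genes. None of the list was called lower with limma-voom or DESeq2. Total counts alone gave 4 higher and 2 lower, the lower ones being PRDX3 and TXNRD1, which were also lower where a mean of 10 CPM was required, and PRDX3 was lower without vehicle replicate 1. TXN, thioredoxin itself, had 157.5 ± 2.89 CPM with AICAR and 134.9 ± 7.22 CPM with vehicle (SD, n = 2 each), a 1.17-fold rise. RRM1, a subunit of ribonucleotide reductase, which thioredoxin reduces, rose 1.17-fold, and PRDX5, a peroxiredoxin, 1.18-fold. With limma on log2(FPKM + 1), 2 genes of the list were higher and 0 lower. RRM1 and PRDX5 did not pass there (adjusted p = 0.064 and 0.0579).

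Among NEDD4 family ligases and their adaptors, 4 of 8 tested genes fell and 1 rose (median log2 fold change -0.12), beside 19.7% and 19.4% of all genes tested. With total counts alone the counts were 4 and 0. SMURF1 had the largest fall, 1.47-fold, with 12.5 ± 0.311 CPM in AICAR libraries and 18.4 ± 0.077 CPM in vehicle libraries (SD, n = 2 each). WWP1 and SMURF2 had log2 fold changes of -0.31 and -0.29, and ITCH, a ligase that ubiquitinates TXNIP, -0.18. With DESeq2, SMURF1 alone of this list was called, and with limma on log2(FPKM + 1) none was. The gene that rose, WWP2, did not pass without AICAR replicate 2 or without vehicle replicate 2 either.

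Genes with an arrestin fold outside the 5 were called in either direction. ARRB1 and ARRB2, the beta-arrestins that desensitise G protein coupled receptors, rose 1.17-fold and 1.27-fold, and RGP1, a Golgi trafficking protein, rose 1.27-fold. SAG, the visual arrestin gene, fell at a low level, with 20 and 11 counts in AICAR libraries against 42 and 38 in vehicle libraries. Of the 8 tested, 3 rose and 1 fell (median log2 fold change -0.09), or 2 and 1 with total counts alone, beside 19.4% and 19.7% of all genes tested in the edgeR fit. With DESeq2, which gave 7 of them an adjusted p, 3 rose and none fell. SAG did not pass there, nor without AICAR replicate 2 (adjusted p = 0.207) or without vehicle replicate 1 (adjusted p = 0.0907). ARRDC5, the remaining alpha-arrestin, had 11 and 7 counts with AICAR against 21 and 20 with vehicle and did not pass (log2 fold change -1.03, adjusted p = 0.0954).

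Membrane proteins reported as cargo of TXNIP or the ARRDC proteins were called in either direction, 3 lower and 3 higher of 9 tested (median log2 fold change -0.13), beside 19.7% and 19.4% of all genes tested. The counts were 4 and 3 with total counts alone, 1 and 3 with DESeq2, and 1 and 0 with limma on log2(FPKM + 1). SLC2A1, which encodes GLUT1, fell 1.29-fold, to 40.8 ± 1.08 CPM with AICAR, against 52.7 ± 1.44 CPM with vehicle (SD, n = 2 each). NOTCH2, a receptor of the Notch pathway, rose 1.26-fold. ADRB1, an adrenergic receptor gene, fell at a level of 6 and 9 counts with AICAR against 23 and 27 with vehicle. The count of lower genes rested on single libraries. It was 1 without AICAR replicate 1 and 1 without vehicle replicate 2, where ADRB1 and SLC2A3, another glucose transporter gene, did not pass.

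ESCRT genes and vesicle partners of ARRDC1 also split, with 3 of 10 tested higher and 2 lower (median log2 fold change 0.03), near the 19.4% and 19.7% of all genes tested. The counts were 1 and 3 with total counts alone and 3 and 4 where a mean of 10 CPM was required. TSG101, the ESCRT protein that ARRDC1 recruits, had 29.6 ± 0.155 CPM with AICAR and 28.96 ± 0.268 CPM with vehicle (SD, n = 2 each) and did not pass (adjusted p = 0.71). STAM and VPS37A, other components of ESCRT complexes, fell 1.47-fold and 1.23-fold, and VPS28 rose 1.22-fold. Among AMPK genes, the AKT kinases and USP5, 5 of 10 tested rose and 1 fell (median log2 fold change 0.16), beside the same shares of all genes. With total counts alone the counts were 4 and 2. The AMPK subunit gene PRKAA1 did not pass in the reported fit (log2 fold change -0.13). It was called lower with total counts alone (-0.19), among protein-coding genes alone (-0.13) and where a mean of 10 CPM was required (-0.17). Without vehicle replicate 1 its log2 fold change was -0.17. Among protein-coding genes alone, 2 genes of the list were lower. The AMPK subunit gene PRKAB2 fell by 0.68 in log2 units, while USP5, a deubiquitinase gene, and AKT1 rose 1.25-fold each. With limma on log2(FPKM + 1) the counts of the list were 2 higher and 0 lower. PRKAB2 did not pass there (log2 fold change -0.38), and it is not tested where a mean of 10 CPM is required.

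**Figure D4:**
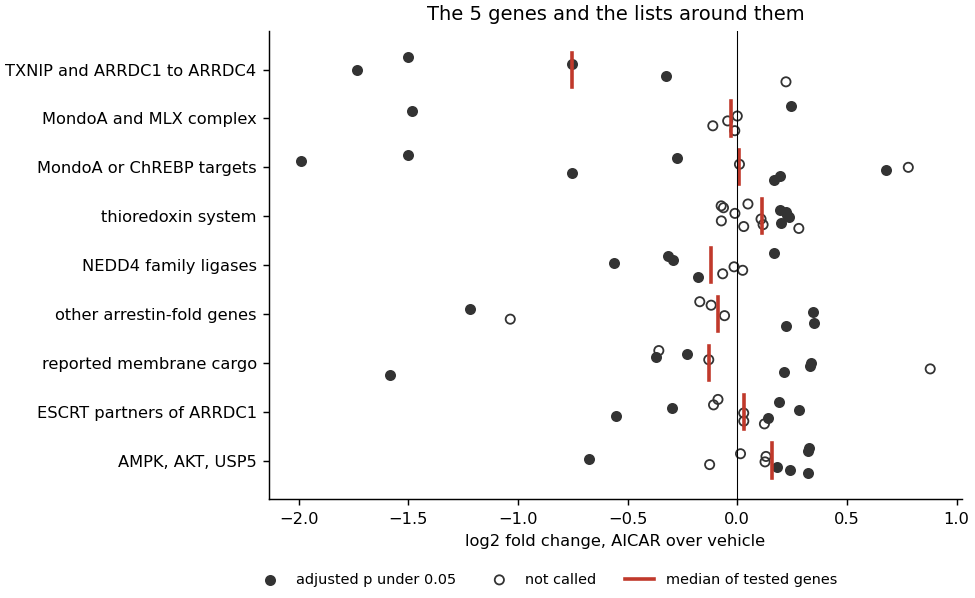
Log2 fold change, AICAR over vehicle, of every tested gene in the family (top row) and in 8 lists around it. Filled points passed at an adjusted p under 0.05, open points did not, and red bars are medians. The family median is -0.75, and the list medians lie between -0.13 and 0.16.

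The genes with the most similar pattern to each member over the 4 libraries were sought among 7949 other protein-coding genes that averaged 10 CPM or more, by the root mean square difference of mean-centred log2(CPM + 1). With 2 libraries a group, this measure reads mainly the size of the change. Nearest to TXNIP were EXOC8, an exocyst subunit gene (difference 0.0204), KTI12, linked to tRNA modification (0.025), and MYC (0.0255). MYC had 187.5 ± 0.636 CPM with AICAR and 529.5 ± 18.6 CPM with vehicle, and EXOC8 had 7.20 ± 0.135 CPM with AICAR and 22.1 ± 0.085 CPM with vehicle (SD, n = 2 each). Nearest to ARRDC3 were HBEGF, a growth factor gene (0.0259), ZNF408 (0.0395) and TNFAIP3, the gene of the NF-kB inhibitor A20 (0.0409). GCC1, C1GALT1 and CENPC lay nearest to ARRDC4, PIGG, ARHGAP25 and PRC1 to ARRDC2, and MEX3D, PTPRCAP and DOHH to ARRDC1.

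Across the other scalings, filters and tests on counts, and with each library left out, the log2 fold change ranged between -1.56 and -1.46 for TXNIP, between -1.79 and -1.63 for ARRDC3, between -0.86 and -0.64 for ARRDC4 and between -0.38 and -0.29 for ARRDC2. All of these passed the test, apart from the requirement of 10 CPM, under which ARRDC4 is not tested.

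**Figure D5:**
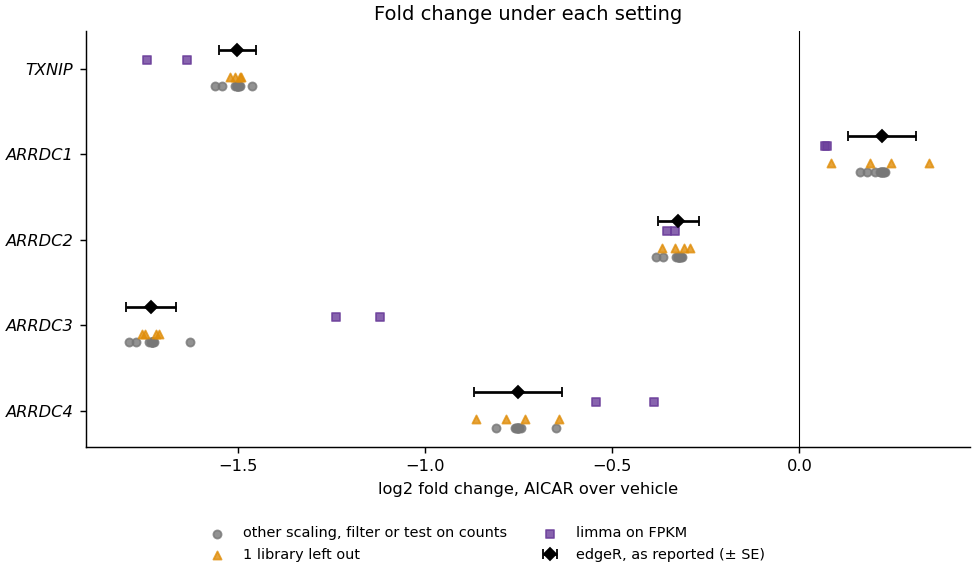
Log2 fold change of each gene, AICAR over vehicle, in the reported edgeR fit (black, ± SE), under other scalings, filters and tests on counts (grey), with 1 library left out (orange) and with limma on FPKM (purple). The settings on FPKM stand apart for ARRDC3 (-1.12 and -1.24), ARRDC4 and TXNIP.

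The libraries held 32318376 and 34458010 expected counts with AICAR, against 33919915 and 36769116 with vehicle. B cell precursor markers were abundant in all 4, with 12 of 13 listed genes in the table, summing to 3923 and 4015 CPM with AICAR, against 3745 and 3796 CPM with vehicle. The 3 T cell markers in the table summed to 4.17 and 4.25 CPM with AICAR, against 4.14 and 4.62 with vehicle. Most of that was TRAC, at 3.7 and 3.86 CPM with AICAR against 3.91 and 4.24 CPM with vehicle. CD4 had 15 and 12 counts with AICAR against 6 and 14 with vehicle. CD2 was at 0 in AICAR replicate 1 and vehicle replicate 2. The 5 myeloid markers in the table summed to 2.25 and 2.90 CPM with AICAR, against 2.04 and 1.96 with vehicle. Of the erythroid list HBB, the gene measured, had 1 and 4 counts with AICAR and was at 0 in both vehicle libraries. The part of other cells in these results was not tested.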

How the data were processed

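Total RNA of 4 NALM6 libraries was sequenced with single reads of 75 bases from a stranded kit, per the labels' protocols. Tools listed in the submitters' processing notes are RSEM 1.2.31, STAR 2.5.3a, Trimmomatic 0.32 and DESeq2, with hg19 as the build; no source used here names the annotation. The values deposited by the authors are expected counts per gene and library, not normalized, and FPKM values normalized for length and depth. The log2 fold changes and q-values deposited by the authors (12652 genes have a q-value) are quoted as theirs.

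Columns were assigned by their names. Expected counts were rounded, filtered with filterByExpr (minimum count 10, minimum total 15), scaled with TMM factors and compared with edgeR 4.0.16 (quasi-likelihood test, two-sided, R 4.3.3), with Benjamini-Hochberg adjustment over 13626 genes and a threshold of 0.05. SE is the log2 fold change divided by the root of the F statistic. The members and lists were chosen with earlier results of these data known, so list counts and medians carry no test. Named in each list were the 3 largest changes among called genes, any others changed at least 1.5-fold, and, chosen after their values were seen, MLXIP, MLX, HK2, PFKFB3, ACLY, ACACA, ITCH, ARRB1, ARRDC5 and TSG101, and genes whose call moved with a setting. Implied length is counts divided by FPKM and by total counts. Alternatives used limma 3.58.1, DESeq2 1.42.0 and other settings. The procedure was tested on simulated data. Far fewer genes changed there than were called here, so that test does not bear on the scaling of these libraries. Motifs and transcript lengths come from RefSeq and GENCODE 29 on GRCh38, another build than hg19, matched by symbol.

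Between replicates the chi-square per gene was 2.93 for AICAR and 8.41 for vehicle, above sampling noise. The common biological coefficient of variation was 3.63%. Figures were drawn with matplotlib 3.10.9.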

Additional observations from a re-analysis of the deposited data

How the results depend on the processing

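Of 84 fold changes of the 5 genes under 17 settings, none changed sign, and 79 stayed on their side of the threshold. The setting at an adjusted p under 0.01 kept the reported fit and moved only the threshold, so its fold changes could not differ. The fall of ARRDC4 did not pass with limma on log2(FPKM + 1) (-0.39) or log2(FPKM + 0.1) (-0.54). ARRDC1 was called higher with the replicate block (0.22) and, among the fits that leave out a library, ranged from 0.086 to 0.35, so that the count of members called higher was 1 under the replicate block and 0 to 1 with a library left out. The cause was not tested.

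Over all genes, the count called higher was 2645 and became 1390 with total counts alone, 1727 at an adjusted p under 0.01, and 603 and 591 with limma on log2(FPKM + 1) and log2(FPKM + 0.1). With DESeq2 the count called higher was 1817. The count called lower was 2683 and became 1782 with DESeq2, 1893 at an adjusted p under 0.01, and 1289 and 1285 on the same FPKM scales. With total counts alone 3135 genes were lower. Of 272 list counts under these settings, 210 stayed within 1.5 times their reported value and 62 did not. With limma on log2(FPKM + 1) no gene of the MondoA, NEDD4 family or arrestin-fold lists was called.

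Same-numbered libraries did not deviate together (Pearson's r over genes -0.050), so the numbers were not taken as pairs. The replicate block gave 2708 genes higher and 2721 lower and changed no other call of the members. On FPKM the ARRDC3 change was -1.12 and -1.24 and still passed. ARRDC4 gave no value where a mean of 10 CPM was required. Leaving out a library leaves 1 library in its group, which is then assumed to vary like the other group. Depth limits ARRDC4 most, at 149 to 295 counts.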

Other observations

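The paired E-box-like element found before the TXNIP start site was held by promoter stretches of 16 genes, of which 13 are in the table and 10 were tested. Of these 10, TXNIP included, 4 fell and 2 rose, beside 19.7% and 19.4% of all genes tested. The others that fell were AKAP10, an anchoring protein for protein kinase A, with 10.7 and 11.1 CPM in AICAR libraries against 20.2 and 20.6 CPM in vehicle libraries, TIGD1, with 4.51 and 4.10 CPM with AICAR against 6.83 and 7.88 CPM with vehicle, and STX12, a syntaxin of endosomes, with 11.6 and 10.9 CPM with AICAR against 15.1 and 14.7 CPM with vehicle. Those that rose were KCTD5 (log2 fold change 0.16) and RAN, the nuclear transport GTPase (0.14). GFPT1, the first enzyme of hexosamine synthesis, had 46.4 and 46.0 CPM with AICAR against 43.2 and 43.0 CPM with vehicle and did not pass (edgeR adjusted p = 0.107). These genes were looked up after the TXNIP promoter had been read, and whether any factor bound these stretches was not measured.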
